A study of Mus musculus with 15 samples.

Results

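Quadriceps femoris muscle was compared between mice that had received their own muscle stem cells back and mice that had a sham operation. All libraries whose titles name muscle were taken, 9 of the 15 in the series, of which 6 came from transplanted and 3 from sham mice. The mice were wild type, of strain 129, and are labelled as males of 10 weeks, a label that is set against sex-linked genes below. The cells, obtained by biopsy, were autologous MuSCs (stem cells of muscle, also called satellite cells, which lie beside the fibres). Sham mice carry the same treatment entry as transplanted mice in the labels, so titles alone separate the groups. The labels state neither the time from surgery to sampling nor the distance from the injected site. Titles number the mice, so each library was taken as 1 animal, named below by group and mouse number. The authors deposited the muscle libraries in 2 tables. One holds transplanted 4, 14 and 94 with sham 3 and sham 192 (the 2-sham table), and the other holds transplanted 5, 6 and 11 with sham 12 (the 1-sham table).

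Adult quadriceps consists mainly of fast glycolytic fibres with a smaller share of slow oxidative fibres, and between them lie vessels, nerves, macrophages, fibroadipogenic progenitors and fat cells. Muscle also answers quickly to handling, feeding and hormones. Immediate early genes are transcribed within minutes of contraction or injury, glucocorticoids raise inhibitors of growth signalling such as Ddit4, and insulin raises the enzymes of fatty acid synthesis. Transplanted MuSCs can fuse with host fibres or return to the satellite cell position, and their number in whole muscle RNA is small.

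Libraries held 18.07 to 22.98 M estimated counts (M for mega) with 19429 to 20284 genes detected, and log2 CPM correlated at 0.955 to 0.983 between libraries. CPM is a count per mega counts of the library after TMM scaling. Markers of mature muscle were at high levels throughout, so the tissue label held. The label of male did not: the X-inactivation transcript Xist had 2022 to 6137 counts in 8 libraries, and the Y-linked genes Ddx3y, Eif2s3y and Uty had 0 to 5.05 counts in all 9. Transplanted 4 had 2 counts of Xist and 0 of Ddx3y, Eif2s3y and Uty, so these genes did not settle its sex. It had 17 counts of the Y-linked Kdm5d, which had 4 to 19.2 counts over the 9 libraries. Without this library edgeR again called 0 genes between the groups, with 1117 at an unadjusted p under 0.05, and the lists that it moved most are given without it below. Sham 12 had the lowest share of mitochondrial counts, 9.29% against 12.2% or more in the other libraries, and is the only control of its table. Fits without sham 12 keep the table as a term. Their difference therefore comes only from transplanted 4, 14 and 94 against shams 3 and 192. Leaving out transplanted 4 as well keeps only transplanted 14 and 94 against those shams. Bulk RNA cannot tell fewer cells of a type from less RNA per cell.

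No gene passed the test between transplanted and sham muscle. Of 14375 genes, edgeR's quasi-likelihood test with the table as a term called 0 (0%) at an adjusted p under 0.05, and the smallest adjusted p was 0.423. At an unadjusted p under 0.05 it found 586 genes lower in transplanted muscle (4.08%) and 432 higher (3.01%), 1018 in all (7.08%). Transplanted and sham libraries did not overlap for 138 genes that were lower (0.96%) and 165 that were higher (1.15%), 303 in all (2.11%). Of all genes tested 7205 were negative (50.1%). These shares are the background for the counts of list members below. DESeq2 on the same counts called 6 genes (0.0417%), 4 lower (0.0278%) and 2 higher (0.0139%). edgeR with no filter on low counts called 12 of 26414 (0.0454%), 10 lower (0.0379%) and 2 higher (0.00757%). All log2 differences below are transplanted minus sham from the edgeR fit, with their standard error, and each gene had an adjusted p of 0.423 or more there.

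The gene at the upper end was Ddit4, which inhibits mTORC1 and is induced by glucocorticoids, hypoxia and energy stress. Its level ranged from 4.71 to 13.4 CPM in transplanted muscle, with a median of 10.5, and was 2.36, 2.86 and 3.46 CPM in shams 3, 192 and 12. Each of the 6 transplanted libraries stood above each sham, with transplanted 11 nearest to them. The log2 difference was 1.77 ± 0.29, at 2.21 within the 2-sham table and 1.13 within the 1-sham table. Ddit4 was called by DESeq2, by edgeR with no filter and within the 2-sham table alone, where it was the 1 call among 14047 genes (0.00712%), and its adjusted p ran from 5.81e-06 to 0.91 over the edgeR, DESeq2 and limma alternatives.

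Of 24 tested genes that answer to glucocorticoids or restrain mTOR, 16 were positive and 5 had an unadjusted p under 0.05, all 5 higher. Their median log2 difference was 0.22, against -0.00 over all genes tested. It was 0.25 within the 2-sham table, with 6 genes negative, and 0.03 within the 1-sham table, with 12 negative and 1 at an unadjusted p under 0.05. Nfkbia, an inhibitor of NF-κB that glucocorticoids induce, was at 9.80 to 11.4 CPM in transplanted muscle and at 7.50, 7.42 and 8.35 CPM in the shams. Its groups did not overlap (0.46 ± 0.11). Tsc22d3, the glucocorticoid-induced leucine zipper, was at 141 to 194 CPM (median 159) against 112, 111 and 147 CPM (0.37 ± 0.12), and there only sham 12 fell within the transplanted range.

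Zbtb16, a transcription factor with the same induction, was at 29.4 to 63.1 CPM (median 46.9) against 32.4, 26.9 and 34.7 CPM. Its difference was 0.89 in the 2-sham table and 0.07 in the 1-sham table. Cebpd was at 4.75 to 15.2 CPM (median 9.31) against 6.43, 4.56 and 5.09 CPM (0.86 ± 0.33; named after its value was seen). Fkbp5, the cochaperone that limits glucocorticoid receptor activity, was at 88.5 CPM in transplanted 6 and at 15.6 to 22.1 CPM in the other transplanted mice. The shams stood at 22.2, 9.54 and 14.0 CPM, so Fkbp5 showed an excess in 1 mouse and otherwise overlapping groups (0.72 ± 0.56). With total counts in place of TMM the median of the list was 0.10, and on log2(TPM + 1) it was 0.02, with 12 of 24 negative. The median of all genes was -0.11 in both settings.

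**Figure D1:**
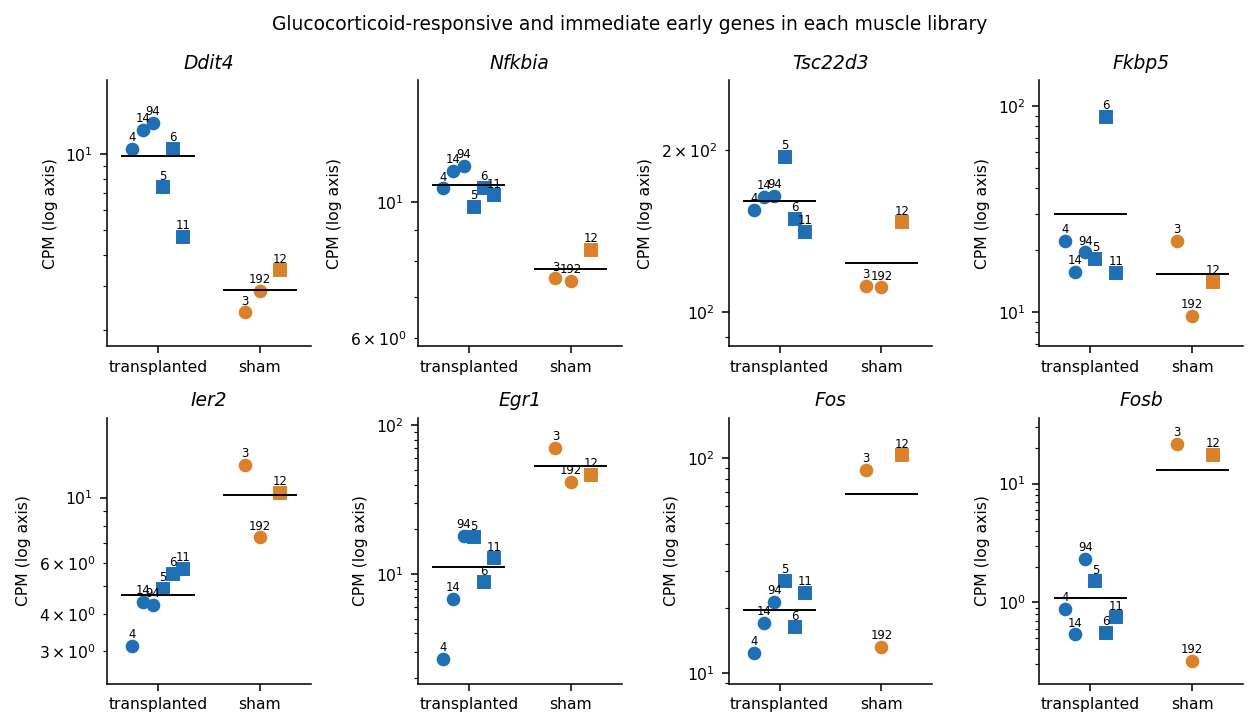
Level of 8 genes in each library in CPM on log axes, with blue for transplanted and orange for sham, circles for the 2-sham table, squares for the 1-sham table, mouse numbers beside the points and lines at group means. Ddit4, Nfkbia, Ier2 and Egr1 separate the groups, while sham 192 lies within the transplanted range for Fos and below it for Fosb.

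At the lower end stood immediate early genes. Ier2 was at 3.12 to 5.73 CPM in transplanted muscle (median 4.65) and at 12.9, 7.32 and 10.4 CPM in shams 3, 192 and 12 (-1.20 ± 0.19). Egr1, a zinc finger factor induced by growth factors and stretch, was at 2.70 to 18.2 CPM (median 10.8) and at 70.9, 41.6 and 46.8 CPM (-2.33 ± 0.42). For both genes each sham lay above each transplanted library. Plk2, a kinase gene also known to answer to serum, was at 3.40 to 5.86 CPM against 6.75, 10.7 and 8.54 CPM (-0.91 ± 0.20), again without overlap.

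Fos and Fosb, which form the AP-1 factor with Jun proteins, showed another pattern. Fos was at 12.4 to 26.9 CPM in transplanted muscle (median 19.2), at 88.5 CPM in sham 3 and 103 CPM in sham 12, but at 13.2 CPM in sham 192. Fosb was at 0.536 to 2.31 CPM in transplanted muscle, at 21.6 CPM in sham 3 and 17.4 CPM in sham 12, and at 0.318 CPM in sham 192. So 2 of 3 shams were high for Fos and Fosb and the third was as low as transplanted muscle (-1.85 ± 0.41 and -3.61 ± 0.77). Junb, their partner, was at 5.27 to 13.7 CPM against 22.4, 9.97 and 26.7 CPM (-1.22 ± 0.30; named after its value was seen). Without sham 192, edgeR called 4 of 14722 genes (0.0272%), Fos and Fosb among them (adjusted p = 0.00207 for each, with 0.00207 to 1 over the alternatives).

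Of the 24 immediate early genes tested, 16 were negative and 7 had an unadjusted p under 0.05, all 7 lower. The median was -0.26, and it was -0.48 without sham 192 and 0.03 without sham 3. Not all members shared the pattern. Jun, Jund, Atf3 and Klf4 differed by -0.09, 0.01, -0.02 and 0.03, and Klf2 by 0.43 ± 0.25 (named after their values were seen). Jun itself was at 106, 61.1 and 139 CPM in the shams, so sham 192 was the lowest sham there too.

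Serum response factor binds the CArG box and CREB binds the CRE (TGACGTCA) in promoters of this class, so windows from 250 bases before to 50 bases after the start site were searched for both on both strands. RefSeq windows (GRCm38.p6) matched 21 of the 24 genes, the others being Egr1, Ier2 and Egr3. The CArG box was found for 2 of the 21 (9.52%; 1.81% of all 27025 genes with a window) and the CRE for 3 (14.3%; 2.03% of all). The stretches of 30 bases around the matches are shown to set the members that carry a motif beside their levels, with the motif in capitals.
Egr2, CArG box, chr10:67537484-67537513, plus strand: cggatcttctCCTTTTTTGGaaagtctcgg
Zfp36, CArG box, chr7:28379267-28379296, minus strand: ccaggccgccCCATAAAAGGagaaagctcc
Btg2, CRE, chr1:134079303-134079332, minus strand: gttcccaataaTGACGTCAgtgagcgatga
Dusp1, CRE, chr17:26508597-26508626, minus strand: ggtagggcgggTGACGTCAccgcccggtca
Maff, CRE, chr15:79347480-79347509, plus strand: ggctggggcggTGACGTCActgcatgactg

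The members with a match, named for it whatever their values, did not share a direction. Egr2 differed by -0.97 ± 0.35 and Zfp36, which encodes an RNA-binding repressor of cytokine messages, by 0.00 ± 0.19. With a CRE, Btg2 differed by -0.46 ± 0.23, the phosphatase gene Dusp1 by -0.23 ± 0.15 and Maff by 0.26 ± 0.30. For Btg2 and Dusp1 shams 3 and 12 were above each transplanted library and sham 192 was within or below their range. Sham 192 was at 24.6 CPM of Btg2 and 56.4 CPM of Dusp1, and shams 3 and 12 were at 56.0 and 62.8 CPM and at 98.2 and 99.2 CPM. Neither motif was in the windows of Fos, Fosb or Junb, which says only that these letters are absent from those windows.

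Fat cell and lipogenic genes split the shams in the way that Fos did. All 11 tested adipocyte genes were negative, 9 of them at an unadjusted p under 0.05, with a median of -1.57. Adipoq, the gene of the fat cell hormone adiponectin, was at 3.12 to 31.9 CPM in transplanted muscle (median 8.71) and at 21.8, 6.31 and 71.7 CPM in shams 3, 192 and 12 (-1.57 ± 0.53). Plin1, the coat protein of the fat cell lipid droplet, was at 3.17 to 24.1 CPM against 26.7, 5.41 and 56.8 CPM (-1.77 ± 0.51). Sham 192 lay within the transplanted range for both, and transplanted 6 was the highest of the transplanted mice.

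The fat cell markers Retn, Adrb3 and Cebpa, at the 3 lowest p of the list, differed by -2.04 ± 0.45, -2.16 ± 0.50 and -1.71 ± 0.45. Lep, which encodes leptin, was at 0.791 to 6.58 CPM against 6.96, 1.64 and 13.1 CPM (-1.29 ± 0.62). Summed TPM of the list was 158.4 to 643.2 in transplanted muscle and 588.9, 219.3 and 1488 in shams 3, 192 and 12, so the groups overlapped. The number of adipocyte genes at an unadjusted p under 0.05 was 3 without sham 12, 4 without sham 3 and 1 without transplanted 4 and sham 12. The first and last of these rest on the 2-sham table alone, the last on transplanted 14 and 94 against shams 3 and 192. All 11 were negative without transplanted 4 and sham 12, with a median of -0.72, and the median ran from -1.98 to -1.04 with each library left out in turn.

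In the list of lipogenesis and desaturation, 13 of 17 tested genes were negative and 9 had an unadjusted p under 0.05, all 9 lower (median -0.81). Over all 9 libraries DESeq2 gave 10 genes at such a p, and limma-voom and robust edgeR gave 6 each. Limma with quality weights gave 1 (median -0.52). Without sham 12 only the 2-sham table entered the difference, the median was -0.35 and 1 gene had such a p. Without sham 3 the median was -0.77 and 4 had one. Fasn, fatty acid synthase, was at 26 to 115 CPM in transplanted muscle (median 57.5) and at 326, 23.2 and 540 CPM in the shams (-2.20 ± 0.66). Scd1, the main stearoyl-CoA desaturase, was at 94.1 to 851 CPM (median 319) and at 1351, 120 and 3129 CPM (-2.01 ± 0.69). Shams 3 and 12 stood above all 6 transplanted libraries for both genes. Sham 192 stood below all 6 for Fasn and near the bottom of their range for Scd1.

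The order of Fasn held for Acaca, which commits acetyl-CoA to fatty acid synthesis, at 31.4 to 55.0 CPM against 99.5, 26.5 and 144 CPM (-1.17 ± 0.36). Acly, which makes cytosolic acetyl-CoA, was at 17.4 to 48.4 CPM against 90.7, 15.6 and 138 CPM (-1.61 ± 0.49), and Thrsp at 7.63 to 25 CPM against 52.8, 9.12 and 77.7 CPM (-1.58 ± 0.46). Fads1, a fatty acid desaturase, had a narrower spread, at 6.10 to 8.99 CPM in transplanted muscle against 12.4, 8.22 and 23.3 CPM (-1.0 ± 0.20). DESeq2 called Fads1 (adjusted p = 0.0203) and edgeR with no filter did too (0.0259), with 0.0203 to 1 over the alternatives. The lipogenic factor genes Srebf1 and Mlxipl differed by 0.06 ± 0.15 and 0.17 ± 0.13 (named after their values were seen).

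Fat cells and the lipogenic enzymes cannot be separated by these libraries: shams 3 and 12 were high in both, and the part of fat cells in the enzyme levels was not tested. In mean centred log2 CPM, transplanted 6 had the highest adipocyte score of the transplanted mice, 1.08, and the second highest lipogenic score, -0.02, after transplanted 14 at 0.19. Without transplanted 4 and sham 12, which sets only transplanted 14 and 94 against shams 3 and 192, the lipogenic median was -0.09. There 14 of 17 genes were negative and 1 had an unadjusted p under 0.05.

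**Figure D2:**
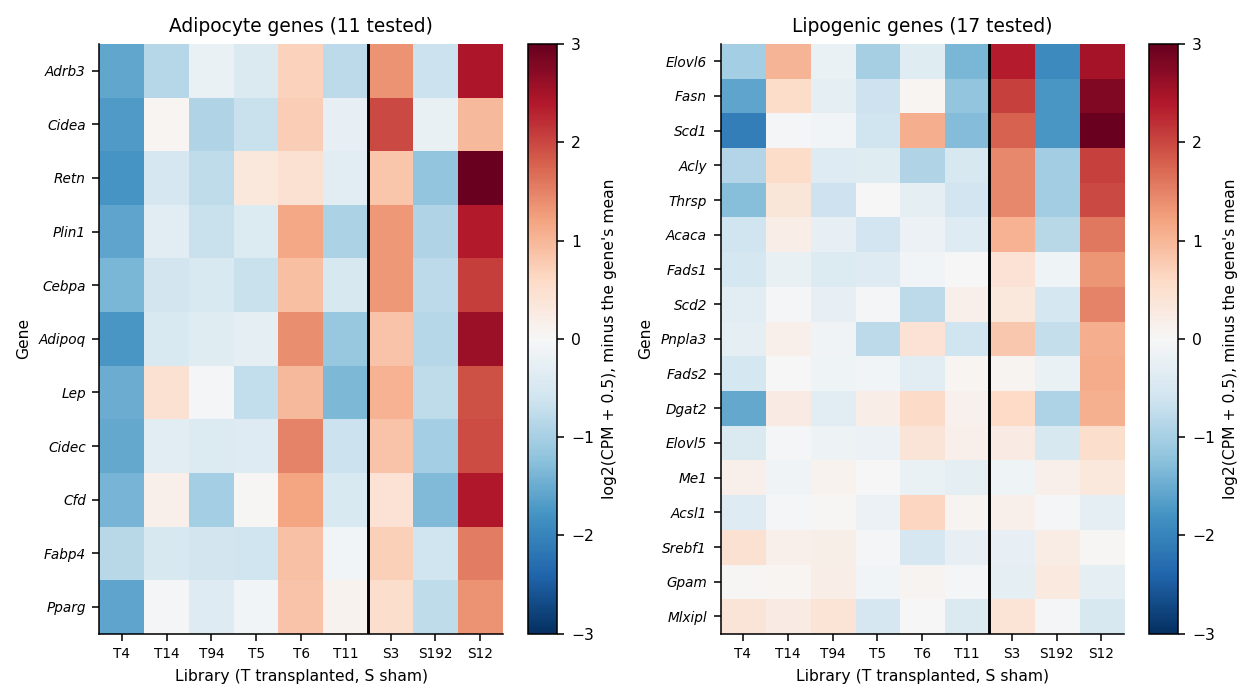
Level of each tested adipocyte gene (left) and lipogenic gene (right) in each library, as log2(CPM + 0.5) minus the gene's mean over the 9 libraries, in red where higher and blue where lower, with a line between transplanted (T) and sham (S). Shams 3 and 12 are high for most genes, sham 192 resembles transplanted muscle, and transplanted 6 is high for adipocyte genes.

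Cholesterol genes, which the same family of SREBP factors drives, were negative in 11 of 13, with 3 at an unadjusted p under 0.05, all lower (median -0.25). Insig1, which encodes a protein of the endoplasmic reticulum, was at 9.83 to 16.9 CPM in transplanted muscle and at 25.5, 13.2 and 38.8 CPM in the shams (-0.95 ± 0.26). Shams 3 and 12 were again the high ones. Lss and Hmgcs1, enzymes of the sterol pathway, differed by -0.54 ± 0.21 and -0.25 ± 0.11. Without sham 12, on the 2-sham table alone, 8 of the 13 were negative and 0 had an unadjusted p under 0.05 in edgeR.

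Genes of the extracellular matrix were negative in 20 of 20 tested, and 7 had an unadjusted p under 0.05, all lower (median -0.35). Limma with quality weights gave 3 at such a p, again with 20 negative (median -0.23). Without sham 12, on the 2-sham table alone, the median was -0.19, with 17 negative and 0 at an unadjusted p under 0.05 in edgeR. Col3a1, a fibrillar collagen of connective tissue, was at 80.1 to 120 CPM in transplanted muscle (median 102) and at 138, 104 and 198 CPM in the shams (-0.53 ± 0.18). Col5a2 was at 11.9 to 16.8 CPM against 19.6, 16.4 and 27.6 CPM (-0.54 ± 0.14), and Sparc, a collagen-binding glycoprotein, at 69.6 to 144 CPM against 119, 83.4 and 206 CPM (-0.43 ± 0.13). Sham 12 was the highest library for each of these 3 and sham 192 lay within the transplanted range. Without transplanted 4 and sham 12 the list was evenly divided, with 10 of 20 negative and a median of 0.00. That setting compares only transplanted 14 and 94 with shams 3 and 192.

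Dpp4, a marker of the progenitor state of fibroadipogenic cells, was the only member of its list whose groups did not overlap. It was at 0.772 to 2.14 CPM in transplanted muscle (median 1.54) and at 2.79, 3.29 and 3.17 CPM in the shams (-0.98 ± 0.26). Pdgfra, the receptor that defines these cells, was at 16.5 to 31.4 CPM against 25.4, 24.3 and 30.9 CPM (-0.27 ± 0.17). Of 13 fibroadipogenic markers 11 were negative (median -0.21), 4 of them at an unadjusted p under 0.05. Without sham 12, on the 2-sham table alone, 8 were negative (median -0.06) and 0 had such a p in edgeR. Tenocyte markers were negative in 7 of 8 (median -0.40), with 2 at an unadjusted p under 0.05, and 0 without sham 3 or without sham 12 in edgeR.

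Macrophage markers were negative in 12 of 12 (median -0.18), with 0 at an unadjusted p under 0.05 in edgeR. In limma with quality weights 5 of the 12 were negative (median 0.04). Within the 2-sham table the edgeR median of these markers was 0.17 and within the 1-sham table -0.65. Lyz2 was at 17.3 to 25.3 CPM in transplanted muscle, at 18.6 and 17.7 CPM in shams 3 and 192 and at 38.0 CPM in sham 12, and Csf1r overlapped between the groups, at 5.49 to 11.0 CPM against 8.04, 7.11 and 10.8 CPM. Within the 2-sham table, which alone enters the difference without sham 12, 2 of the 12 markers were negative. Endothelial markers were divided, 8 positive and 5 negative (median 0.04).

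**Figure D3:**
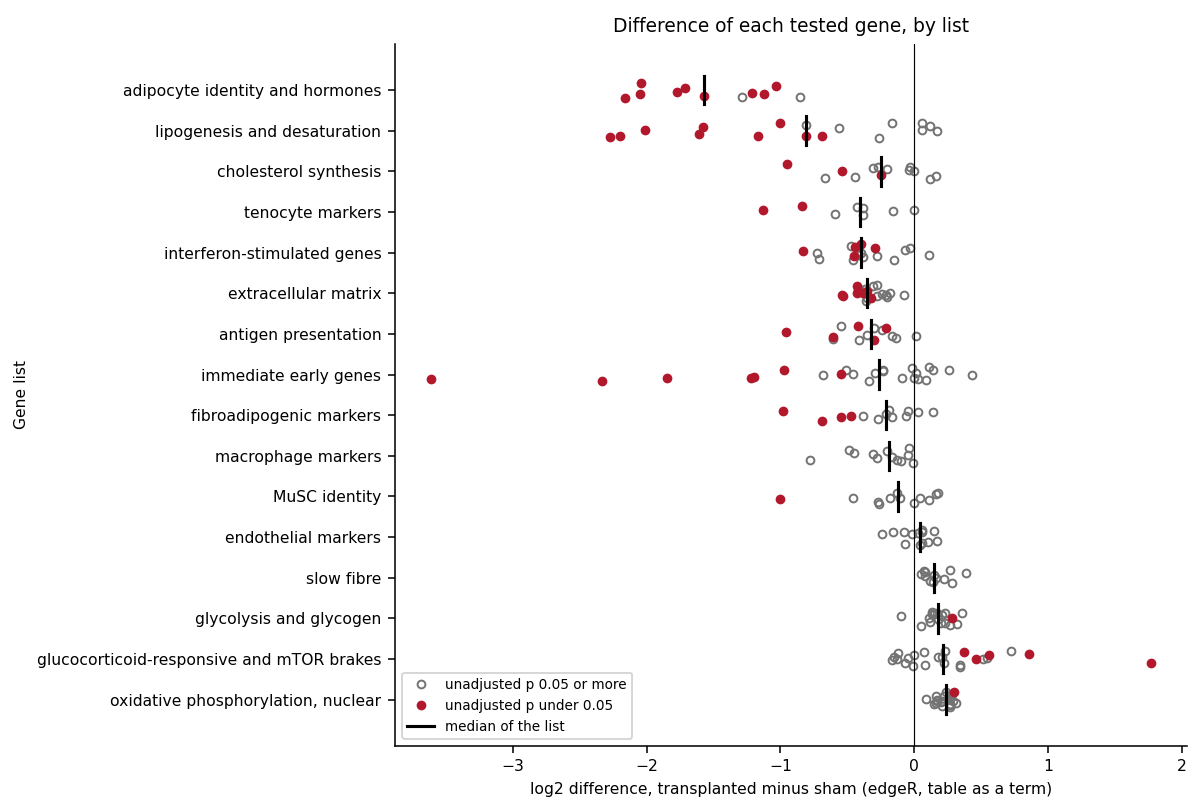
Difference of each tested gene of 16 lists on the log2 scale, transplanted minus sham, with vertical offsets for display only, red for an unadjusted p under 0.05 and a black bar at the list's median. Adipocyte genes have the lowest median of the plotted lists, -1.57, while Ddit4 stands at 1.77 and Fosb at -3.61.

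Satellite cell genes gave no clear difference. Pax7, which marks these cells, was at 0.326 to 1.13 CPM in transplanted muscle and at 1.29, 0.795 and 1.06 CPM in the shams (-0.46 ± 0.39). Myf5 was at 0.241 to 0.669 CPM against 1.29, 1.01 and 0.624 CPM (-1.0 ± 0.41), and only sham 12 fell within the transplanted range. Of 12 MuSC identity genes 7 were negative (median -0.12), with 1, Myf5, at an unadjusted p under 0.05. In the list of regeneration and fusion 7 of 13 were positive (median 0.02) and 0 had an unadjusted p under 0.05 in edgeR. Embryonic Myh3, which regenerating fibres express, was at 1.07 to 10.3 CPM in transplanted muscle and at 3.38, 5.73 and 3.07 CPM in shams, so no sign of a difference in regenerating fibres was detectable.

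Interferon-stimulated genes were negative in 16 of 17 tested, with 5 at an unadjusted p under 0.05, all lower (median -0.40). In mean centred log2 CPM sham 192 was the high library, at 0.86, with sham 3 at -0.25 and sham 12 at 0.09. Summed TPM, which is not TMM-scaled, was 78.36, 105.8 and 115.7 in shams 3, 192 and 12. It was 55.16 to 76.47 in transplanted muscle, so on this measure sham 12 was highest and the groups did not overlap. Gbp2, an interferon-induced GTPase, was at 21.3 CPM in sham 192, at 5.46 and 9.55 CPM in shams 3 and 12 and at 3.97 to 11.2 CPM in transplanted muscle (-0.83 ± 0.37). Irf1 was at 6.25 to 8.43 CPM in transplanted muscle and at 6.91, 12.9 and 9.79 CPM in the shams (-0.45 ± 0.18). Without sham 192 the median was -0.09, with 9 of 17 negative and 2 at an unadjusted p under 0.05, and without transplanted 14 it was -0.27, with 1 at such a p.

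Genes of antigen presentation were negative in 13 of 14 (median -0.33), with 5 at an unadjusted p under 0.05, all lower. Tap2, a subunit of the transporter that loads peptides onto class I molecules, was at 5.98 to 7.27 CPM against 7.55, 9.33 and 7.73 CPM, without overlap (-0.30 ± 0.13). Psmb8, a subunit of the immunoproteasome, was at 2.23 to 5.22 CPM against 4.61, 6.89 and 6.43 CPM (-0.61 ± 0.23). H2-D1, a class I heavy chain, was at 72.7 to 144 CPM against 106, 97.9 and 207 CPM (-0.42 ± 0.16). H2-D1 belongs to a family of near-identical genes, so its counts are uncertain. The median was -0.40 without sham 192, with 1 gene at an unadjusted p under 0.05, and -0.13 without sham 12, with 2. Without transplanted 14 it was -0.29, again with 2.

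**Figure D4:**
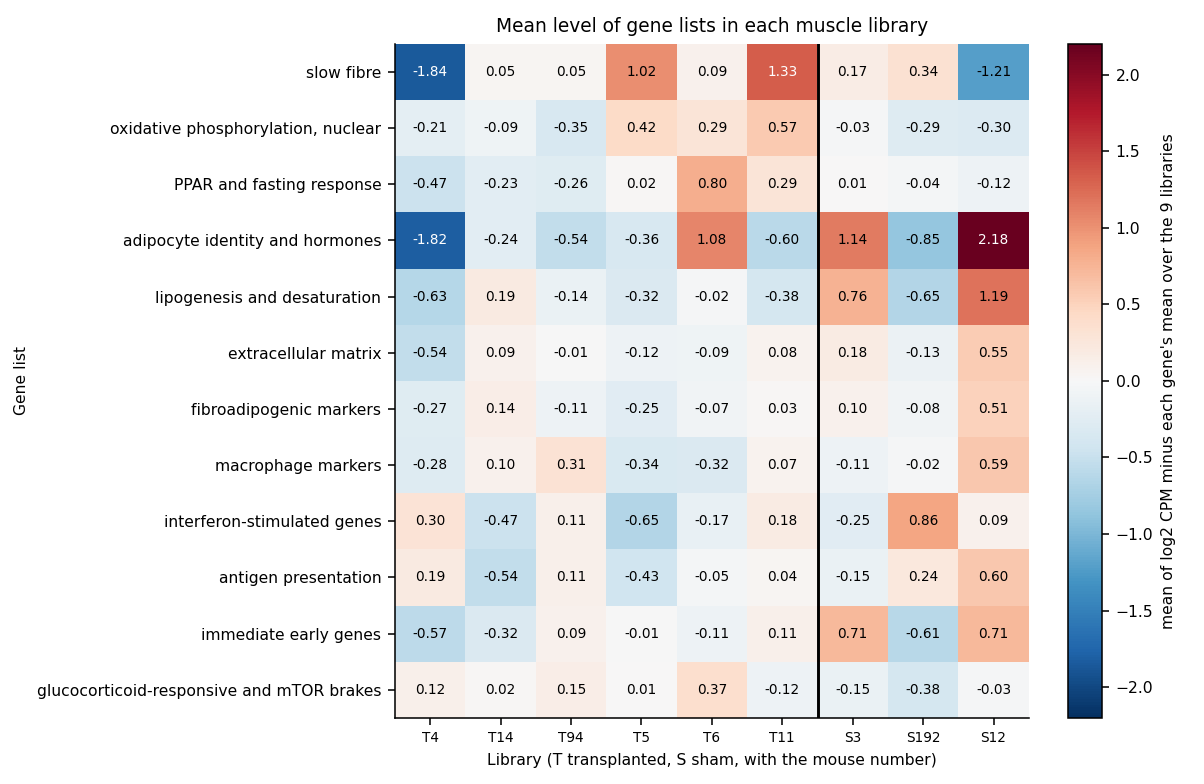
Mean over each list's tested genes of log2 CPM minus the gene's mean over the 9 libraries, 1 row per list and 1 column per library, with a line between transplanted (T) and sham (S). Sham 12 (2.18) and sham 3 (1.14) are high for adipocyte genes, sham 192 (0.86) for interferon-stimulated genes, and transplanted 4 (-1.84) and sham 12 (-1.21) are low for slow fibre genes.

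Fibre type genes varied more between mice than between groups. Per length, Myh4 of the fastest fibres was the most abundant of the 5 myosin heavy chains compared, at 5925 to 12570 TPM over the 9 libraries (median 9653). Myh1 followed with a median of 1165 TPM, Myh2 with 502.8, slow Myh7 with 211.3 and embryonic Myh3 with 0.82. Myh7 was at 112 CPM in transplanted 4 and 1264 CPM in transplanted 11, and at 604, 938 and 182 CPM in shams 3, 192 and 12 (0.05 ± 0.71). Its lowest values were thus in 1 mouse of each group.

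All 12 slow fibre genes tested were positive in the fit over both tables (median 0.15), yet the tables disagreed. The median was 0.64 without transplanted 4, the library lowest for these genes, and that of the myosin heavy chains moved from 0.08 to 0.51. Within the 2-sham table all 12 were negative (median -0.66) and the myosin heavy chain median was -0.51. The fit without sham 12 gave the same medians, as only this table then enters the difference. Within the 1-sham table all 12 were positive (median 2.28). Tnnc1, slow troponin C, was at 17.1, 77.6 and 74.9 CPM in transplanted 4, 14 and 94, beside 79.6 and 99.9 CPM in their shams. It was at 227, 108 and 283 CPM in transplanted 5, 6 and 11, beside 29.4 CPM in sham 12. Its difference was -0.67 in one table and 2.81 in the other.

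A test of that disagreement asked for each gene whether the difference depended on the table. edgeR called 0 of 14375 genes (0%), with a smallest adjusted p of 0.198 and 1342 at an unadjusted p under 0.05 (9.34%). DESeq2 called 130 (0.904%), 123 of them more positive in the 1-sham table, and edgeR with no filter called 103 of 26414 (0.39%). Without transplanted 4, edgeR called 1 of 14138 (0.00707%). Of the slow fibre genes 12 of 12 had an unadjusted p under 0.05 in edgeR, and DESeq2 called 5, namely Tnnc1, Myl3, Tpm3, Mybpc1 and Myoz2. With 1 sham in the 1-sham table, this contrast rests on sham 12.

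Nuclear genes of oxidative phosphorylation also gave unlike medians in the 2 tables, but in another pattern. All 21 tested were positive over both tables (median 0.24), the median was -0.05 in the 2-sham table and 0.73 in the 1-sham table, and 20 of 21 had an unadjusted p under 0.05 for dependence on the table. DESeq2 called 19 of them. Cox6a2, the muscle form of a cytochrome oxidase subunit, was at 361, 360 and 313 CPM in transplanted 4, 14 and 94 against 312 and 336 CPM in their shams. In the 1-sham table it was at 511, 472 and 558 CPM against 327 CPM in sham 12. The shams of both tables were alike for Cox6a2, and the transplanted mice of the 1-sham table stood apart from the other libraries.

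Cox4i1, a further cytochrome oxidase subunit, was at 380, 440 and 357 CPM against 424 and 350 CPM, and at 637, 595 and 771 CPM against 389 CPM. Ndufb5 of complex I had the same order, at 178, 185 and 153 CPM against 179 and 158 CPM, and at 284, 248 and 305 CPM against 171 CPM. For both genes sham 12 lay among the libraries of the 2-sham table and only transplanted 5, 6 and 11 were higher. The 13 genes of the mitochondrial genome were positive in 13 of 13 (median 0.24), at medians of 0.04 and 0.70 within the tables. The labels do not say what else differed between the tables.

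**Figure D5:**
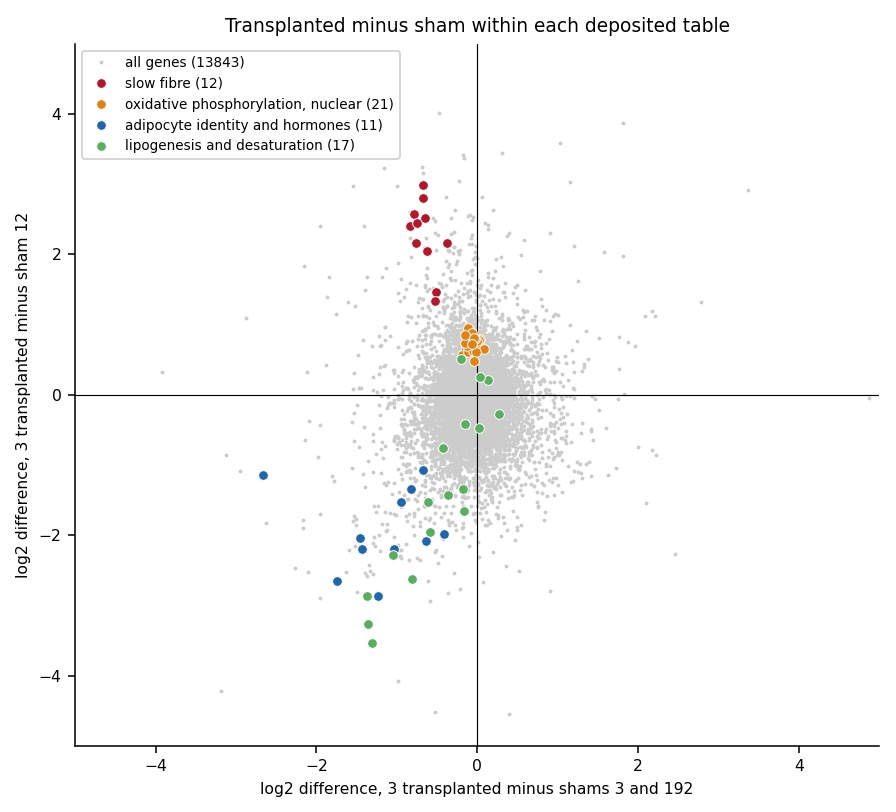
Log2 difference of each gene within the 2-sham table (x axis) and within the 1-sham table (y axis), for 13843 genes tested in both, of which 25 lie outside the axes, with 4 lists in colour. Slow fibre genes lie above 0 on the y axis and left of 0 on the x axis, oxidative phosphorylation genes lie above 0 on the y axis and near 0 on the x axis, and adipocyte genes lie below and left of both.

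Within the 1-sham table alone edgeR called 41 of 14855 genes (0.276%), 22 lower (0.148%) and 19 higher (0.128%) in transplanted muscle. With 1 sham in this table, which was assumed to vary like the transplanted mice, these calls say how sham 12 differed from transplanted 5, 6 and 11, not how the groups differed. Of the 17 lipogenesis genes 6 were among the lower calls: Fasn, Acaca, Acly, Elovl6, Thrsp and Fads1. Fasn differed by -3.27 there and by -1.36 in the 2-sham table, and Acly by -2.63 and -0.81. Myh2, of fast oxidative fibres, was among the higher calls and differed by 1.82 there and by -0.36 in the 2-sham table.

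Genes of the fasting response showed 1 mouse apart. Pdk4, which blocks glucose oxidation by inhibiting pyruvate dehydrogenase, was at 2338 CPM in transplanted 6 and at 172 to 547 CPM in the other 5 transplanted mice. The shams were at 293, 538 and 379 CPM (0.03 ± 0.61). Ucp3, an uncoupling protein raised by fatty acids, was at 188 CPM in transplanted 6, at 68.3 to 80.0 CPM in the other 5 and at 63.9, 79.5 and 70.3 CPM in shams. Of the 20 genes of the list 15 were positive (median 0.12), and the median was -0.25 and 0.71 within the 2 tables.

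At the upper end of the ranking were further genes with small and even differences. Med26, a Mediator subunit, was at 7.78 to 11.4 CPM against 7.50, 6.63 and 5.66 CPM (0.61 ± 0.12), and Fhl3, a LIM protein of muscle, at 57.1 to 73.6 CPM against 48.5, 46.6 and 41.1 CPM (0.51 ± 0.11). Aen, a nuclease gene that p53 induces, was at 52.1 to 61.1 CPM against 45.7, 45.8 and 46.6 CPM (0.29 ± 0.07). Atg4d, a protease of autophagosome formation, was at 33.3 to 43.4 CPM against 29.7, 27.6 and 32.5 CPM (0.34 ± 0.08). The groups did not overlap for these 4 genes, which were picked for their rank, so their order is a description. With total counts in place of TMM, genes higher without overlap fell from 165 to 36 over all tested. The overlap of these 4 was not examined there. Acot7, Hcfc1r1, C2cd2l and Rpp25l completed the upper ranks at 0.41, 0.44, 0.36 and 0.49. Without transplanted 94 edgeR called 2 of 14262 genes (0.014%), neither of them among these. The gene with no symbol that DESeq2 and edgeR with no filter called, ENSMUSG00000121042.1, differed by 0.76 ± 0.14 without overlap.

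At the lower end, Acvr1c, the receptor ALK7 that fat cells express, was at 0.326 to 1.66 CPM against 4.13, 0.955 and 5.04 CPM (-2.28 ± 0.48). Sncg, a synuclein also expressed in fat, was at 2 to 13.5 CPM against 10.8, 4.03 and 34.9 CPM (-1.62 ± 0.34). Both had the order of the fat cell genes, with shams 3 and 12 high and transplanted 6 the highest of the transplanted mice. Far2, which reduces fatty acyl-CoA to alcohols, was at 0.368 to 0.860 CPM against 2.46, 1.64 and 0.816 CPM (-1.39 ± 0.30), and there sham 12 was the low sham.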

How the data were processed

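The authors deposited 2 muscle tables that give, per the file headers, TPM, FPKM and estimated counts per library over 56953 genes. Only estimated counts and TPM of the deposited tables were used, and 7.92% of the count values were not whole and were rounded. The submitters' processing notes name GRCm38 and mm10, with aligner and quantifier not given in the sources. File coordinates differed from that build, so none are printed. Another 3 columns matched no sample's labels and were not used. Rows with no gene symbol held 0.0449 to 0.0559% of counts.

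The 6 transplanted and 3 sham libraries were tested with edgeR 4.0.16 (R 4.3.3): filterByExpr with a minimum count of 10, TMM scaling, quasi-likelihood fit with the table as a term, Benjamini-Hochberg adjustment over all genes, 2-sided, threshold 0.05. An interaction term tested dependence on the table. The script was tested on simulated data. P-values measure the spread between these libraries, and counting floors of 3 counts were 0.131 to 0.166 CPM. Libraries of 1 group and table differed by more than counting noise (chi-square over its degrees of freedom 16.7 to 29.5). Gene lists (49, of which 45 had 3 or more tested genes) are described by counts and medians. Members and lists were chosen with earlier results of these data known. Genes named were drawn from those called by DESeq2 1.42.0 or with no filter and those ranked in the top or bottom 10 by signed F statistic (predicted genes left out). Each list added its first 3 tested genes and 4 lowest p. All myosin heavy chains, troponins, tropomyosins, mitochondrial genome and sex-linked genes were added too. Not all of these genes are named. Genes called only in other alternatives or matched by a motif are given as such, and other names are marked. Alternatives were DESeq2, limma 3.58.1 (voom, quality weights, and trend on log2(TPM + 1)), robust edgeR, RLE or total-count scaling, no filter, a minimum count of 50, no mitochondrial genes, no table term, each table alone and each library left out. With the table as a term, fits without sham 12 take their difference from the 2-sham table only. Leaving out transplanted 4 with sham 12 was added after seeing the data, as were the other settings for counts of genes without overlap.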

Additional observations from a re-analysis of the deposited data

Results flagged for a closer look

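Among the 6 transplanted mice, 109 named genes and 45 lists were checked for a library far from the other 5, a check that chance flags in about 1 in 20 groups. It found 11 genes and 3 lists. In transplanted 6 these were Pdk4 at 2338 CPM, Ucp3 at 188 CPM and Angptl4 at 13.08 CPM, genes that fatty acids induce through PPAR factors, and Fkbp5 at 88.55 CPM. Fat cell genes also stood out in transplanted 6, with Adipoq at 31.86 CPM, Plin1 at 24.08 CPM, Cebpa at 13.68 CPM and Acvr1c at 1.658 CPM, and so did Herpud1, of the unfolded protein response, at 99.41 CPM. In transplanted 14 the lipogenic genes Acly and Elovl6 stood out at 48.38 and 13.93 CPM. In transplanted 4 the mean centred log2 CPM was low for extracellular matrix genes (-0.54), erythroid markers (-1.42) and the Notch and Wnt list (-0.24).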

How the results depend on the processing

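Of the 23 alternatives to the test of transplanted against sham muscle, 17 also called 0 genes. DESeq2 called 6, no filter 12, the 2-sham table alone 1 and the 1-sham table alone 41. Leaving out 1 library in turn gave 0 to 4 calls: 4 without sham 192 (Fos, Fosb, Retn and Acaca) and 2 without transplanted 94 (Lars2 and Rn18s-rs5). For dependence on the table, DESeq2 called 130 genes, no filter 103 and leaving out 1 library 0 to 1, the 1 without transplanted 4. Genes without overlap numbered 303, 290 with RLE and 404 with total counts, and 358 to 1168 with 1 library left out, which loosens the criterion. The 404 with total counts were 36 higher and 368 lower, against 165 and 138 with TMM. Total counts moved the median of all genes to -0.11, and genes at an unadjusted p under 0.05 then split into 82 higher and 1311 lower, against 432 and 586. On log2(TPM + 1) the split was 74 and 1206. Under total counts the medians of glycolysis, ribosomal protein and glucocorticoid lists were 0.07, 0.01 and 0.10. Without mitochondrial genes the list of the mitochondrial genome has no median. TMM factors were 1.03, 1.03 and 1.11 in shams 3, 192 and 12 and 0.93 to 1.03 in transplanted libraries, and total counts and TPM do not use them. What made the factors differ between libraries was not tested. Without sham 12, when only the 2-sham table enters the difference, the slow fibre median was -0.66 and the macrophage median 0.17, against 0.15 and -0.18. Ddit4, Ier2, Egr1, Fos, Fosb, Fasn and Adipoq kept their sign in 24 of 24 fits.

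No paired analysis was possible because transplanted and sham mice share no mouse number. With 3 shams, 1 of them the lone control of a table, differences confined to a single sham cannot be told apart from differences between groups, and genes at a few CPM carry wide counting error.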

Other observations

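Growth and amino acid genes were not described above. Igf1, the local muscle growth factor, was at 5.12 to 9.44 CPM in transplanted muscle and at 15.9, 6.74 and 18.7 CPM in shams 3, 192 and 12 (log2 difference -0.88 ± 0.28), the order seen for fat cell genes. Fst, which encodes the myostatin antagonist follistatin, was at 4.33 to 6.56 CPM against 6.11, 7.11 and 10.4 CPM (-0.63 ± 0.19), while Mstn itself differed by -0.17 ± 0.23. Among targets of the integrated stress response, Asns was at 0.860 to 2.72 CPM against 3.38, 2.12 and 4.61 CPM (-1.16 ± 0.29) and Phgdh differed by -1.36 ± 0.42, whereas Atf4, the factor that drives them, differed by 0.24 ± 0.09 and Herpud1 by 0.21 ± 0.09. Asns and Atf4 thus lay on opposite sides of zero.

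Of 18 glycolysis and glycogen genes 17 were positive (median 0.18), and 8 were negative without transplanted 4 and sham 12 (median 0.01). The latter setting compares only transplanted 14 and 94 with shams 3 and 192. With total counts the median was 0.07, and on log2(TPM + 1) it was 0.03 with 6 negative. The median of all genes was -0.11 in both settings. In this list 2 genes were higher without overlap, against 1.15% of all genes tested. Slc2a4, the insulin-responsive glucose transporter, was at 396 to 486 CPM in transplanted muscle and at 376, 342 and 344 CPM in shams, without overlap (0.28 ± 0.09), and Pfkm, muscle phosphofructokinase, did not overlap either (0.21 ± 0.11). None of these genes passed edgeR's test (adjusted p of 0.686 or more).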
